A study of Mus musculus with 6 samples.

Results

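The hepatic nuclear receptors described here are 9 genes, Nr1i2, Nr1i3, Nr1h4, Nr0b2, Nr5a2, Rxra, Esr1, Thrb and Nr3c1, chosen by symbol from a table of 55536 genes. All 9 were found and all 9 passed the filter of at least 1 TPM in at least 3 libraries, as did 12796 genes in total. RNA from 6 mouse liver samples was sequenced, 3 labelled H-VMP1 KO and 3 labelled WT. All were C57BL/6 mice aged 8 to 10 weeks with floxed VMP1 alleles, and all received an AAV8 vector with the TBG promoter, which is active in hepatocytes, for 2 weeks. The vector carried cre in the H-VMP1 KO animals and no transgene (null) in the WT animals, so the WT livers also carried floxed alleles and virus. RNA came from whole liver, so cells other than hepatocytes, which the TBG promoter is not meant to reach, are part of every value. Whether samples with the same label came from separate animals is not stated, so p-values measure only the spread between these samples, which may be technical.

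Nuclear receptors are transcription factors, most of which are switched by small lipid-soluble ligands. In hepatocytes several of them sense bile acids, drugs and hormones and set the enzymes and transporters that handle these compounds. PXR (Nr1i2), CAR (Nr1i3), FXR (Nr1h4) and the thyroid hormone receptor (Thrb) bind DNA as a pair with RXR alpha (Rxra), while LRH-1 (Nr5a2) binds alone. The glucocorticoid receptor (Nr3c1) and the oestrogen receptor (Esr1) act mostly as pairs of themselves, and SHP (Nr0b2) has no DNA-binding domain and represses other receptors by contact.

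A promoter of each of the 4 receptors that fell, and of Nr0b2, is shown because many nuclear receptors, RXR pairs and LRH-1 among them, bind variants of the hexamer AGGTCA, singly or as spaced pairs. Sequences are RefSeq, build GRCm38.p6, and run 5′ to 3′ on the gene's own strand, with 250 bases before and 50 bases from a RefSeq transcript start. Rxra and Thrb have 2 RefSeq starts each, and the window with a motif is shown for both. Capitals mark AGGTCA, its reverse complement TGACCT, and TCAAGG, the start of the extended site TCAAGGTCA that LRH-1 binds.
Nr1i3, chr1:171213720-171214019, plus strand: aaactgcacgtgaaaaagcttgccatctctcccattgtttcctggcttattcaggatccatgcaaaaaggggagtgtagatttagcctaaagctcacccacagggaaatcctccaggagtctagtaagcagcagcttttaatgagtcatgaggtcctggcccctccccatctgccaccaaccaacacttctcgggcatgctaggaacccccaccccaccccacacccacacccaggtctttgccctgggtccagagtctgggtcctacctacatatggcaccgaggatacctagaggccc
Nr1h4, chr10:89506609-89506908, minus strand, internal start: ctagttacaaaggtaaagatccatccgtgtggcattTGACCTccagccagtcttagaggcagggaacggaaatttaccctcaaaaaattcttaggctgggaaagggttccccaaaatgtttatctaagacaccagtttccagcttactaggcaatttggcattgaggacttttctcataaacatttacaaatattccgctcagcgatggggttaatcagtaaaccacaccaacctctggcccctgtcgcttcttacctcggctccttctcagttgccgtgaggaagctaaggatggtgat
Rxra, second RefSeq start, chr2:27709042-27709341, plus strand: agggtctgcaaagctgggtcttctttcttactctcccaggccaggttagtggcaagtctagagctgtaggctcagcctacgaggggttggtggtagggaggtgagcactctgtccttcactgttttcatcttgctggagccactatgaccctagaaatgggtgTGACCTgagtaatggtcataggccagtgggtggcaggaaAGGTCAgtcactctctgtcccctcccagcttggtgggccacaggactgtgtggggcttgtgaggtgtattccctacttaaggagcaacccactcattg
Thrb, first RefSeq start, chr14:17660710-17661009, plus strand: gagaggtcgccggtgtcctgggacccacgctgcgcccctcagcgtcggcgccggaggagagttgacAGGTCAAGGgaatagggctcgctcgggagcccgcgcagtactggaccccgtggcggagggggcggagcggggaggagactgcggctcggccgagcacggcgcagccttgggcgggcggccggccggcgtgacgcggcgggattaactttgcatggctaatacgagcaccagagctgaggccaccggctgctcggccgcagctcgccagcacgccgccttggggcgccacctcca
Nr0b2, chr4:133553126-133553425, plus strand: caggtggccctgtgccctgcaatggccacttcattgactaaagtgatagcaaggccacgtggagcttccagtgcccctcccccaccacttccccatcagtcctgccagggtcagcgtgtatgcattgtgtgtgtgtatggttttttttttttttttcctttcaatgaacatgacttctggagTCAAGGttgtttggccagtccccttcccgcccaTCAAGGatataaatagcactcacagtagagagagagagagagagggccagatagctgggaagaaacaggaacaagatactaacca

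Nr3c1 was left out of the promoter search. RefSeq lists 12 promoters for the other 8 receptor genes. AGGTCA on either strand was in 4 of the 12, those of Nr1h4, Nr5a2, Rxra and Thrb, and in 16.3% of all 32851 promoters of the same length. In Nr1h4 it lay on the opposite strand, starting at position -214 from a RefSeq start that lies 26927 bases inside the GENCODE gene. The second Rxra promoter, 32852 bases inside the gene, held it at -87 on the opposite strand and at -48 on the gene's strand. In the first Thrb promoter, 699 bases inside the gene, it began at -184 and overlapped a TCAAGG at -181. The first Rxra promoter (chr2:27676951-27677250) and the second Thrb promoter (chr14:17981394-17981693) held neither motif. Nr0b2 held TCAAGG, a motif searched only after the promoters were seen, at -68 and -35. Of the 12 promoters 3 held it, against 14.4% of all promoters. The Nr1i3 window held neither motif. A direct repeat of AGGTCA with 4 bases between the copies (DR4) was in 0 of the 12 and 0.0152% of all promoters. An inverted repeat with 1 base between them (IR1) was in 0 of the 12 and 0.00913%. The full TCAAGGTCA was in 0 of the 12 and 0.423%. A match is a description of these letters only.

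Values are TPM, a transcript abundance divided by transcript length and scaled to a fixed total per library, so levels of different genes can be compared. Read numbers cannot be had from TPM, and the depth behind each value is unknown. Vmp1, the targeted gene, was at 156.68, 136.43 and 137.16 TPM in the 3 libraries labelled H-VMP1 KO and at 70.65, 96.52 and 88.57 TPM in WT libraries. It was thus not lower where Cre had been given (log2 fold change 0.75 ± 0.13 SE, limma adjusted p = 0.000377), and the sources used here do not give the exons between the loxP sites. Every direction below therefore rests on the libraries' labels. The 9537 genes called higher and 1369 called lower by limma are 74.5% and 10.7% of those tested, and the median gene was 0.77 higher on the log2 scale in libraries labelled H-VMP1 KO. Median-of-ratios scaling, which sets the typical gene equal between libraries, shifted that median by -0.78, and 35.1% of genes were then higher and 36.6% lower. Quantile normalization gave 35.3% and 35.4%. Mup genes, abundant hepatocyte secretory genes, held 0.41 ± 0.117% of TPM in libraries labelled H-VMP1 KO and 16.9 ± 4.85% in WT libraries (SD, n = 3 each).

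Among the 9 receptors, CAR, FXR, RXR alpha and the thyroid hormone receptor beta fell in the libraries labelled H-VMP1 KO, and 0 rose. CAR was 9.65-fold lower, FXR 2.96-fold, RXR alpha 1.69-fold and thyroid hormone receptor beta 1.54-fold lower as ratios of mean TPM. The 4 of 9 called lower compare with 10.7% of all genes tested, the 0 called higher with 74.5%, and the 4 called in either direction with 85.2%. The same 4 were lower with median-of-ratios scaling and with quantile normalization, under which all 9 receptors were called lower, against 36.6% and 35.4% of all genes (71.8% and 70.8% in either direction). On the deposited scale all 9 fold changes lay below the median gene, at percentiles 0.719 to 23.0 of the genes tested. The 3 libraries of each group did not overlap for 4 receptors that were lower and for 1, Nr3c1, that was higher in libraries labelled H-VMP1 KO (11.3% and 75.5% of all genes, 86.8% in either direction).

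**Figure D1:**
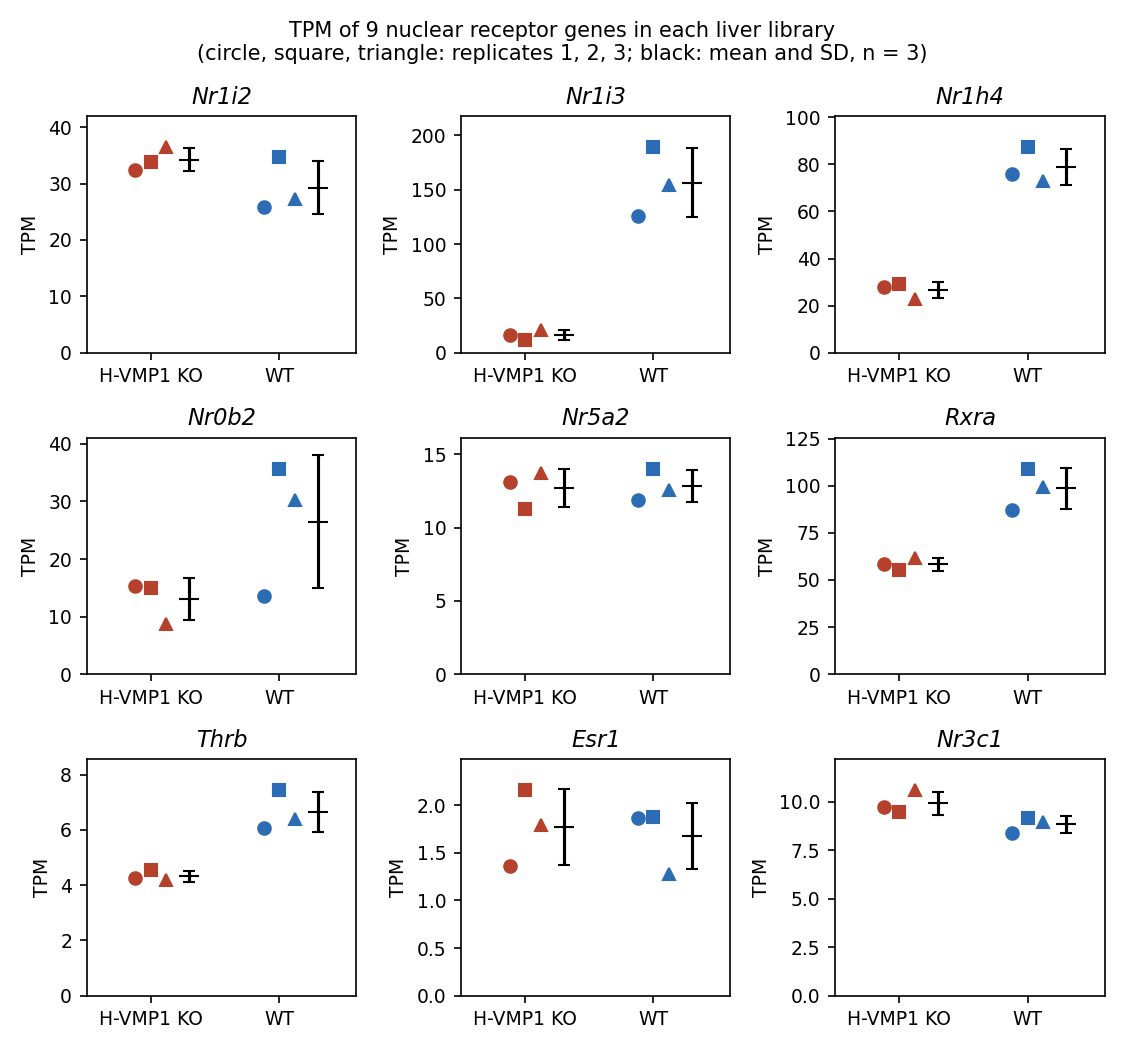
TPM (y axis, from 0) of each receptor gene in the 3 libraries labelled H-VMP1 KO and the 3 WT libraries, with symbols for replicates and black bars for mean and SD. Nr1i3, Nr1h4, Rxra and Thrb separate the groups with the libraries labelled H-VMP1 KO lower, while Nr0b2 overlaps through WT replicate 1 at 13.6 TPM.

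Cell type markers moved with the groups. Of 12 hepatocyte markers listed, 11 were found by symbol, and Tf was not. The 11 summed to 37386 to 40555 TPM in libraries labelled H-VMP1 KO and 64037 to 84691 TPM in WT libraries, with 9 lower and 1 higher. The 1 higher was Hpx, at 9016 ± 218 TPM in libraries labelled H-VMP1 KO and 3779 ± 214 TPM in WT (SD, n = 3 each). Macrophage markers summed to 1009 to 1337 TPM in libraries labelled H-VMP1 KO, against 95.6 to 158 TPM in WT, with 11 of 12 higher, of which Itgam and Ccr2 passed the filter only through libraries labelled H-VMP1 KO. Endothelial markers summed to 225 to 283 TPM in libraries labelled H-VMP1 KO, against 74.3 to 88.6 TPM in WT, and all 12 were higher. Stellate cell markers summed to 280 to 330 TPM in libraries labelled H-VMP1 KO, against 54.3 to 58.1 TPM in WT, and all 12 were higher, of which Ngfr passed the filter only through libraries labelled H-VMP1 KO. Des (0.90, 0.88 and 1.10 TPM in WT), Pdgfrb (1.04, 0.81 and 0.92) and Col1a1 (0.85, 0.74 and 1.87) also needed libraries labelled H-VMP1 KO to pass. Over all genes tested, 74.5% were called higher and 10.7% lower as deposited. With median-of-ratios scaling 10 hepatocyte markers were lower, and 11 macrophage, 9 endothelial and 11 stellate markers were higher, with the same filter. The shares over all genes were then 36.6% lower and 35.1% higher. Quantile normalization gave 7 hepatocyte markers lower, and 10 macrophage, 10 endothelial and 11 stellate markers higher. Its shares over all genes were 35.4% lower and 35.3% higher. Cholangiocyte markers summed to 136 to 188 TPM in libraries labelled H-VMP1 KO, against 26.0 to 38.6 TPM in WT. Of these 8, 6 could be tested, and 4 of the 5 called higher (Krt19, Epcam, Sox9 and Tspan8) passed the filter only through libraries labelled H-VMP1 KO, so no count is read from them. T and NK cell markers summed to 8.83 to 16.0 TPM in libraries labelled H-VMP1 KO, against 1.63 to 1.79 TPM in WT, and the 2 of 10 that could be tested (Trac and Nkg7) passed the filter only through libraries labelled H-VMP1 KO. These marker genes are named after their values were seen. No marker was at 0 in all 6 libraries. The part of these markers in the receptor results was not tested. In whole liver, fewer cells of a type and less RNA per cell cannot be told apart.

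The xenobiotic sensors differed from each other. Nr1i3 (ENSMUSG00000005677, chromosome 1, 171213970 to 171220701, plus strand, positions from GENCODE M21 on GRCm38) encodes CAR, which turns on Cyp2b genes in response to drugs. It was at 16.45, 11.46 and 20.66 TPM in libraries labelled H-VMP1 KO and at 125.80, 189.04 and 153.81 TPM in WT libraries. The highest library labelled H-VMP1 KO was far below the lowest WT library. Means were 16.2 ± 4.61 TPM in libraries labelled H-VMP1 KO and 156 ± 31.7 TPM in WT (SD, n = 3 each), a log2(TPM + 1) fold change of -3.21 ± 0.23 (SE, limma adjusted p = 5.81e-06). The exons of Nr1i3 overlap Tomm40l, a mitochondrial import gene on the opposite strand, and strand use in counting is not given, so reads of the pair may not be separable. Tomm40l was at 18.3, 18.7 and 19.2 TPM in libraries labelled H-VMP1 KO and at 5.77, 5.67 and 6.86 TPM in WT, so it ran in the other direction.

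Nr1i2 (ENSMUSG00000022809, chromosome 16, 38248323 to 38294824, minus strand) encodes PXR, a broad drug and bile acid sensor that drives Cyp3a genes. It was at 32.40, 33.83 and 36.44 TPM in libraries labelled H-VMP1 KO and at 25.78, 34.65 and 27.34 TPM in WT libraries. The groups overlapped, since WT replicate 2 lay above 2 of the 3 libraries labelled H-VMP1 KO. The log2 fold change of 0.23 ± 0.12 did not pass (limma adjusted p = 0.105). Without WT replicate 2 it was 0.35 and passed (adjusted p = 0.00856). Under median-of-ratios scaling the sign changed, to -0.69 (adjusted p = 0.000573). Within each library, where scaling cancels, Nr1i3 stood at 0.508, 0.339 and 0.567 times Nr1i2 in those labelled H-VMP1 KO, against 4.88, 5.46 and 5.63 times in WT. The order of the pair was thus opposite in the 2 groups, a log2 ratio difference of -3.53.

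Bile acid receptors form a chain in which FXR induces SHP and SHP restrains LRH-1. Nr1h4 (ENSMUSG00000047638, chromosome 10, 89454234 to 89533585, minus strand), encoding FXR, the bile acid receptor, was at 27.97, 29.17 and 22.72 TPM in libraries labelled H-VMP1 KO and at 75.95, 87.26 and 72.93 TPM in WT. The groups were well apart, at 26.6 ± 3.43 TPM in libraries labelled H-VMP1 KO and 78.7 ± 7.55 TPM in WT (SD, n = 3 each). The log2 fold change was -1.53 ± 0.12 (limma adjusted p = 2.08e-06).

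Nr0b2 (ENSMUSG00000037583, chromosome 4, 133553376 to 133556536, plus strand), encoding SHP, was at 15.38, 15 and 8.79 TPM in libraries labelled H-VMP1 KO and at 13.57, 35.72 and 30.28 TPM in WT. WT replicate 1 lay below 2 of the libraries labelled H-VMP1 KO, and the other 2 WT libraries lay above all of them. The log2 fold change of -0.90 ± 0.41 did not pass (limma adjusted p = 0.0847). Without WT replicate 1 it was -1.31 and passed (adjusted p = 0.00168), and with median-of-ratios scaling it was -1.79 (adjusted p = 0.0053). Of the 9 receptors, Nr0b2 had the widest spread within WT for its level, 26.5 ± 11.5 TPM.

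Nr5a2 (ENSMUSG00000026398, chromosome 1, 136842571 to 136960448, minus strand) encodes LRH-1, an activator of bile acid synthesis genes. It was at 13.13, 11.27 and 13.73 TPM in libraries labelled H-VMP1 KO and at 11.90, 14.02 and 12.57 TPM in WT, so the groups overlapped. The log2 fold change was -0.01 ± 0.11 (limma adjusted p = 0.909), and its sign turned without replicate 2 of either group. With median-of-ratios scaling it was -0.89 and passed (adjusted p = 4.92e-05). Of these 3 genes, Nr1h4 passed on the deposited scale and all 3 passed after median-of-ratios scaling.

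RXR alpha is the shared partner of PXR, CAR, FXR and the thyroid hormone receptor. Rxra (ENSMUSG00000015846, chromosome 2, 27676440 to 27762957, plus strand) was at 58.32, 55.04 and 61.82 TPM in libraries labelled H-VMP1 KO and at 87.23, 109.08 and 99.48 TPM in WT. No library crossed between the groups. Means were 58.4 ± 3.39 TPM in libraries labelled H-VMP1 KO and 98.6 ± 11.0 TPM in WT (SD, n = 3 each), a log2 fold change of -0.74 ± 0.11 (limma adjusted p = 0.000126).

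Hormone receptors were lower in level. Thrb (ENSMUSG00000021779, chromosome 14, 17660261 to 18038090, plus strand), the main thyroid hormone receptor of hepatocytes, was at 4.25, 4.56 and 4.18 TPM in libraries labelled H-VMP1 KO and at 6.09, 7.45 and 6.40 TPM in WT. The groups did not overlap, and the log2 fold change was -0.52 ± 0.11 (limma adjusted p = 0.00114). Esr1 (ENSMUSG00000019768, chromosome 10, 4611593 to 5005614, plus strand), the oestrogen receptor, was the lowest of the 9, at 1.36, 2.16 and 1.79 TPM in libraries labelled H-VMP1 KO and 1.87, 1.88 and 1.28 TPM in WT. These overlapped, with a log2 fold change of 0.05 ± 0.14 (limma adjusted p = 0.762) that turned to -0.54 and passed with median-of-ratios scaling (adjusted p = 0.00936). Its sign also turned without replicate 2 of the libraries labelled H-VMP1 KO and without WT replicate 3.

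Nr3c1 (ENSMUSG00000024431, chromosome 18, 39410545 to 39519421, minus strand) encodes the glucocorticoid receptor, which carries the cortisol-type stress and fasting signal in liver. It was at 9.70, 9.48 and 10.60 TPM in libraries labelled H-VMP1 KO and at 8.36, 9.18 and 8.94 TPM in WT. All 3 libraries labelled H-VMP1 KO lay above all 3 WT libraries, by a small margin, and the log2 fold change of 0.15 ± 0.10 did not pass (limma adjusted p = 0.164). With median-of-ratios scaling it was -0.70 and passed (adjusted p = 0.000158). The sign of Nr3c1, like those of Nr1i2 and Esr1, thus depends on how libraries are scaled.

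**Figure D2:**
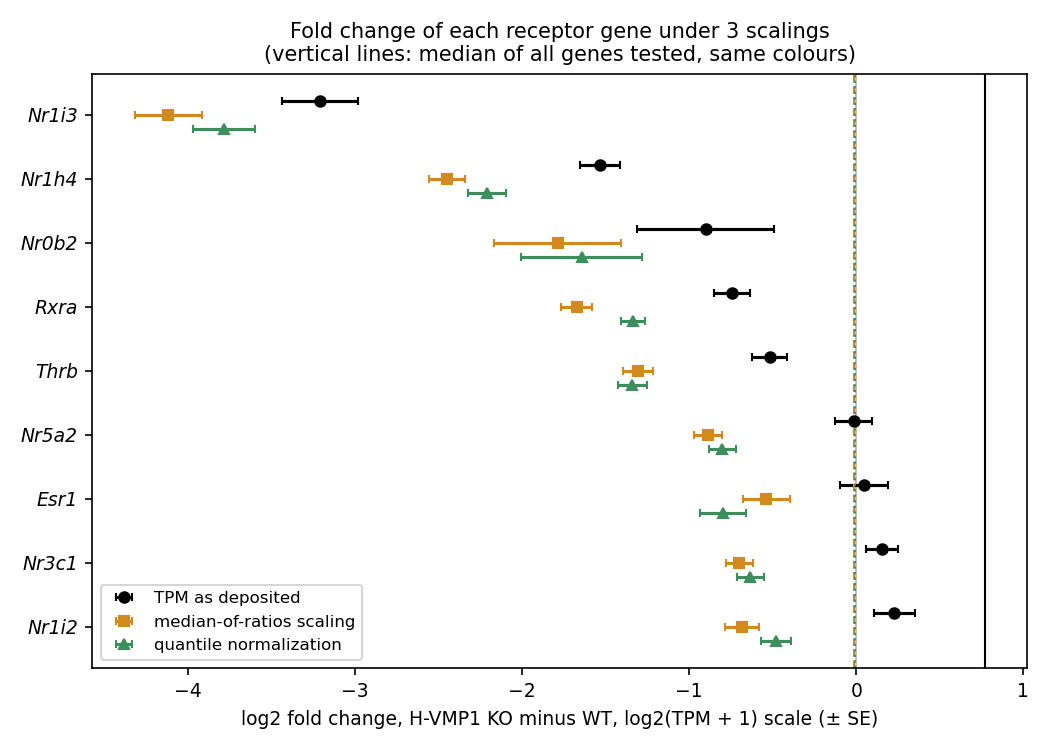
Log2 fold change of each receptor, H-VMP1 KO minus WT, on the log2(TPM + 1) scale with SE bars, for TPM as deposited, median-of-ratios scaling and quantile normalization, with vertical lines at the median of all genes tested. Nr1i3, Nr1h4, Nr0b2, Rxra and Thrb lie left of 0 under all 3, while Nr1i2, Esr1 and Nr3c1 lie right of 0 as deposited and left of it under the other two, and Nr5a2 is at -0.01 as deposited.

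The order of levels differed between the groups. In libraries labelled H-VMP1 KO it was Rxra, Nr1i2, Nr1h4, Nr1i3, Nr0b2, Nr5a2, Nr3c1, Thrb and Esr1, high to low. There the ranges of Nr1i3 and Nr0b2, and of Nr0b2 and Nr5a2, met, and no other neighbours did. In WT libraries the order was Nr1i3, Rxra, Nr1h4, Nr1i2, Nr0b2, Nr5a2, Nr3c1, Thrb and Esr1. There the ranges met between Rxra and Nr1h4, between Nr1i2 and Nr0b2 and between Nr0b2 and Nr5a2. Among all 49 nuclear receptor genes, Nr1i3 ranked 12 by mean TPM in libraries labelled H-VMP1 KO and 1 in WT. Nr1h4 ranked 7 in libraries labelled H-VMP1 KO and 4 in WT, Nr0b2 ranked 14 there and 9 in WT, and Nr1i2 ranked 6 there and 8 in WT. Rxra ranked 3 in both.

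**Figure D3:**
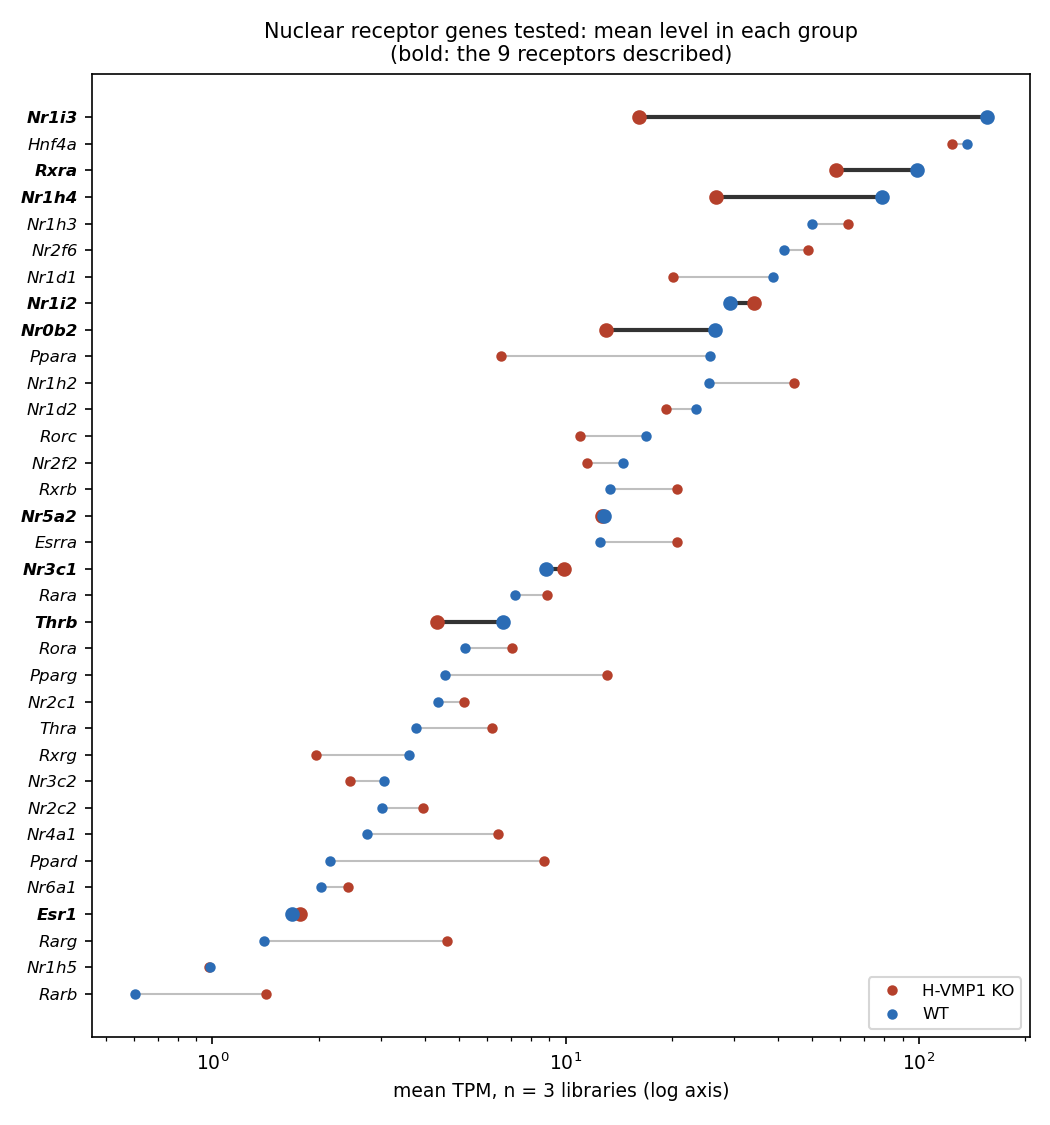
Mean TPM over 3 libraries (log x axis) of the 34 nuclear receptor genes tested, red for libraries labelled H-VMP1 KO and blue for WT, with the 9 receptors in bold. Nr1i3 has the longest line, with 16.2 TPM in red and 156 TPM in blue.

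The 9 receptors together summed to 179, 172 and 181 TPM in libraries labelled H-VMP1 KO and to 357, 488 and 413 TPM in WT. They made up 27.6 ± 0.177% of all nuclear receptor TPM in libraries labelled H-VMP1 KO and 48.3 ± 3.15% in WT (SD, n = 3 each). Nr1i3 alone made up 2.51 ± 0.65% in libraries labelled H-VMP1 KO and 17.96 ± 1.98% in WT. The 2 groups did not overlap for any of these 3 measures, and each gave the smallest two-sided exact permutation p that 3 against 3 allow, 0.1.

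Within-library ratios compare receptors without regard to the scaling. Relative to Rxra, Nr1i3 was lower by 2.54 and Nr1h4 by 0.82 on the log2 scale in libraries labelled H-VMP1 KO than in WT. Relative to Rxra, Nr1i2 was higher by 0.99, Nr3c1 by 0.92, Esr1 by 0.83 and Nr5a2 by 0.74. For these 6 of the 8 genes the groups did not overlap. Thrb relative to Rxra overlapped, with 0.0729, 0.0828 and 0.0676 in libraries labelled H-VMP1 KO and 0.0698, 0.0683 and 0.0643 in WT. Its log2 difference was 0.14 (exact permutation p = 0.3), and that of Nr0b2 relative to Rxra was -0.20 with overlapping groups (exact permutation p = 0.5). Nr1h4 relative to Nr1i2 was 0.863, 0.862 and 0.623 in libraries labelled H-VMP1 KO and 2.95, 2.52 and 2.67 in WT, so FXR stood below PXR in libraries labelled H-VMP1 KO and above it in WT. Nr0b2 relative to Nr1h4 and to Nr5a2 overlapped, with log2 differences of 0.62 and -0.94 (exact permutation p = 0.3 each). In all, 8 of 12 pairs did not overlap. Each of these gave the exact permutation p of 0.1, the smallest possible, which is 0.15 after Benjamini-Hochberg adjustment over the 12, so no pair could pass 0.05.

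**Figure D4:**
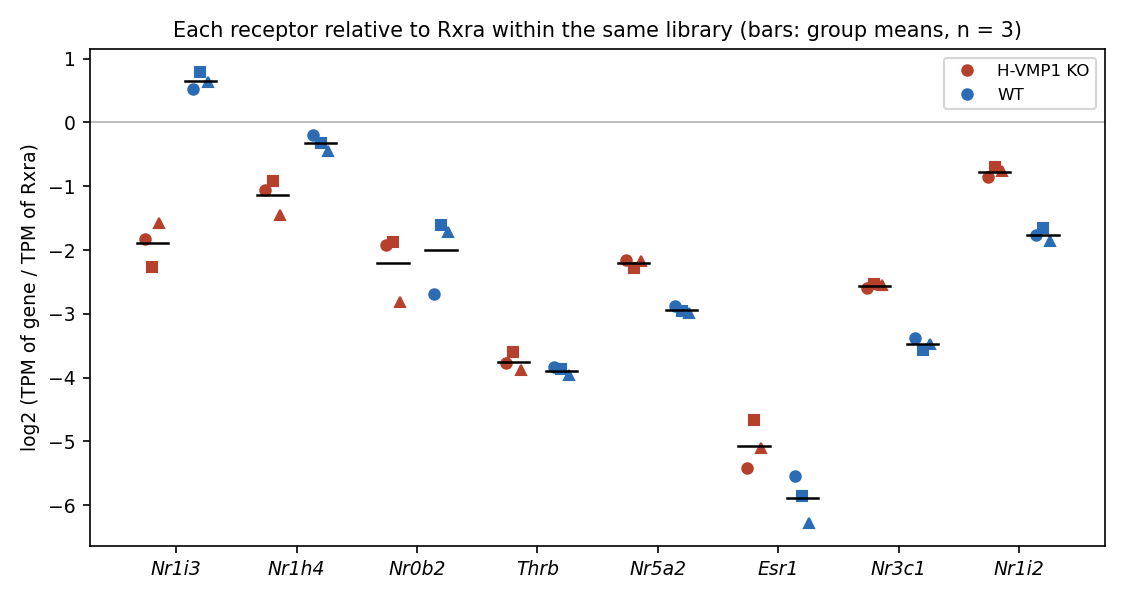
Log2 of each receptor's TPM over that of Rxra in the same library (y axis), red for libraries labelled H-VMP1 KO and blue for WT, with bars at group means. Nr1i3 and Nr1h4 are lower relative to Rxra in red, Nr0b2 and Thrb overlap, and the other 4 are higher in red.

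The genes most alike in profile over the 6 libraries were found by the root-mean-square difference of centred log2(TPM + 1) values among 8040 genes. For Nr1i3 they were Slco1b2 and Saa4, at 0.21 and 0.25 log2 units. For Nr1h4 they were Plg and Lrrc3, at 0.05 and 0.07. For Rxra they were Ldhd and Aldoc, at 0.06 and 0.08, and for Thrb they were Adh5 and Rab43, at 0.03 and 0.04. For Nr0b2 they were Setdb2 and Ptp4a1 at 0.13 and 0.21. For receptors with small differences the nearest genes were Fech and Acad8 (Nr1i2), Man1a and C1ra (Nr5a2), Atg101 (Esr1), and Srpr and Tlk1 (Nr3c1), at 0.09 or less. All 6 points of a profile come from the same 6 libraries, so likeness is a description.

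Among the other 40 nuclear receptor genes, 25 could be tested, and 11 rose and 6 fell, against 74.5% and 10.7% of all genes tested. The median log2 fold change of the 25 was 0.26, against 0.77 over all genes. Of the 11 that rose, Rarb, named after its values were seen, passed the filter only through libraries labelled H-VMP1 KO. Ppara, the fasting fatty acid receptor, fell by 1.83 (6.58 ± 1.22 TPM in libraries labelled H-VMP1 KO, 25.7 ± 1.74 TPM in WT). Ppard and Pparg, its relatives, rose by 1.61 and 1.37. These 3 kept their direction with both scalings. Hnf4a, a master regulator of hepatocyte genes, was at 124 ± 7.64 TPM in libraries labelled H-VMP1 KO and 137 ± 12.8 TPM in WT and did not pass as deposited, while with median-of-ratios scaling it passed at -1.08. Thra, Nr1h3 (LXR alpha) and Rxrb rose by 0.59, 0.33 and 0.59 as deposited, and had fold changes of -0.19, -0.60 and -0.30 with median-of-ratios scaling. Nr1h3 and Rxrb were then called lower and Thra was not called, while quantile normalization called all 3 lower. With median-of-ratios scaling 3 of the 25 rose and 17 fell, and 3 rose and 6 fell under every one of the 3 scalings.

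Receptor coregulators, proteins that receptors recruit to open or close chromatin, were all 21 tested, and 16 rose and 1 fell as deposited, with a median of 0.74. Over all genes 74.5% were called higher and the median was 0.77, so the coregulators were near the background. With median-of-ratios scaling 5 rose and 7 fell. Prmt1, an arginine methyltransferase, rose by 1.64, Kdm1a, a histone demethylase, by 1.26 and Tbl1x, a part of the NCoR corepressor complex, by 1.24, and these 3 rose with each scaling. Ncor1, the corepressor itself, was at 43.8 ± 4.94 TPM in libraries labelled H-VMP1 KO and 36.6 ± 2.41 TPM in WT and did not pass, but passed at 0.34 without replicate 2 of the libraries labelled H-VMP1 KO (adjusted p = 0.0154). Ppargc1a, a coactivator of fasting genes, was at 1.72 ± 0.629 TPM in libraries labelled H-VMP1 KO and 2.27 ± 1.04 TPM in WT and did not pass. With median-of-ratios scaling both passed as lower, at -0.67 and -0.84. The 1 that fell, Ppargc1b, named after its values were seen, was no longer called when replicate 2 of the libraries labelled H-VMP1 KO, WT replicate 2 or WT replicate 3 was left out.

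Of 18 target genes of PXR and CAR, 7 rose and 5 fell, against 74.5% and 10.7% of all genes tested. The median of the 18 was 0.39, against 0.77 over all genes. Of those that rose, Abcc4, Akr1b7 and Abcb1a (the last named after its values were seen) were under 1 TPM in every WT library and passed the filter only through libraries labelled H-VMP1 KO. Gadd45b, also named after its values were seen, was at 0.98, 1.43 and 1.79 TPM in WT and needed libraries labelled H-VMP1 KO to pass. Cyp2c37, a drug-metabolising P450, fell by 5.63 (1.04 ± 0.20 TPM in libraries labelled H-VMP1 KO, 101 ± 16.3 TPM in WT). Cyp3a11, the classic PXR target, was at 313, 910 and 399 TPM in libraries labelled H-VMP1 KO and 1550, 1742 and 1781 TPM in WT, and fell by 1.80 (limma adjusted p = 0.00493). Cyp2b10, the classic CAR target, was at 8.97, 62.28 and 21.77 TPM in libraries labelled H-VMP1 KO and 1.34, 4.50 and 2.20 TPM in WT, and rose by 2.82 ± 0.79 (limma adjusted p = 0.0219). Cyp2b10 thus rose where Nr1i3 fell, and it lost its call without replicate 3 of the libraries labelled H-VMP1 KO (adjusted p = 0.0821) or without WT replicate 1 (0.0798). Abcc4, an efflux pump, and Akr1b7, an aldo-keto reductase, had log2 fold changes of 5.17 and 4.87, with the filter as said above. Cyp genes of one subfamily can be alike enough in sequence to share reads, which was not measured, so their single values are uncertain. The count of 7 was 4 without replicate 1 and 2 without replicate 3 of the libraries labelled H-VMP1 KO. With any 1 of those libraries left out, Abcc4, Akr1b7 and Abcb1a failed the filter and could not be tested. That part of the drop was thus set by the filter.

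Of 15 bile acid genes tied to FXR, SHP and LRH-1, 13 could be tested, and 10 fell and 2 rose, with a median of -1.51. Over all genes tested 10.7% fell and 74.5% rose, with a median of 0.77. Slc51a and Fgf15 were listed at 0 in every library. Cyp8b1, which sets the kind of bile acid made, was at 1.37, 1.84 and 0.55 TPM in libraries labelled H-VMP1 KO and at 201, 185 and 155 TPM in WT. Cyp7a1, the rate-limiting enzyme of bile acid synthesis, was at 0.71, 3.10 and 1.01 TPM in libraries labelled H-VMP1 KO and at 19.5, 37.4 and 24.5 TPM in WT. Both groups stood far apart for both enzymes, with log2 fold changes of -6.37 and -3.49. Slc10a1, the bile acid uptake carrier NTCP, fell by 4.22 and Abcb11, the bile salt export pump, by 1.90. The 10 that fell also fell with both scalings. The 2 that rose, Slc51b and Pltp, named after their values were seen, were 1 with median-of-ratios scaling, 1 without replicate 1 or 2 and 0 without replicate 3 of the libraries labelled H-VMP1 KO. Slc51b passed the filter only through those libraries, so it could not be tested with any 1 of them left out.

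Of 10 thyroid hormone genes 8 could be tested, and 5 fell and 2 rose, against 10.7% and 74.5% of all genes tested. The median of the 8 was -0.72, against 0.77 over all genes. Dio1, which activates thyroid hormone, fell by 2.96. Thrsp, a lipogenic gene induced by thyroid hormone, was at 71.8, 53.9 and 79.9 TPM in libraries labelled H-VMP1 KO and 82.5, 187 and 145 TPM in WT, and fell by 0.94 (limma adjusted p = 0.031). It lost its call when any 1 library other than WT replicate 1 was left out, with adjusted p up to 0.124. Hr, a corepressor and direct thyroid hormone target, rose by 1.66, and passed the filter only through libraries labelled H-VMP1 KO. Leaving out any 1 of those libraries reduced the 2 that rose to 1, since Hr then failed the filter and could not be tested. Me1, named after its values were seen, rose by 0.48 as deposited and was called lower, at -0.45, with median-of-ratios scaling.

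Of 17 glucocorticoid genes, 4 rose and 5 fell, against 74.5% and 10.7% of all genes tested. The list is not limited to direct targets. Among those that rose were the heat shock chaperone genes Hsp90aa1 and Hsp90ab1, by 1.56 and 1.13, named after their values were seen. The median of the 17 was 0.37, against 0.77 over all genes. Pck1, a gluconeogenic enzyme that is also among the hepatocyte markers, fell by 3.66, while Sgk1, a kinase, and Igfbp1, a growth factor binding protein, rose by 3.25 and 2.64. Tsc22d3 (GILZ), a direct target, fell by 1.99 (23.2 ± 2.10 TPM in libraries labelled H-VMP1 KO, 101 ± 42.8 TPM in WT). Fkbp5, another direct target, was at 20.6, 16.7 and 24.0 TPM in libraries labelled H-VMP1 KO and at 6.39, 35.9 and 23.9 TPM in WT, and did not pass (limma adjusted p = 0.825). Without WT replicate 1 its log2 fold change was -0.51, against 0.16 with all libraries, and passed (adjusted p = 0.0454).

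**Figure D5:**
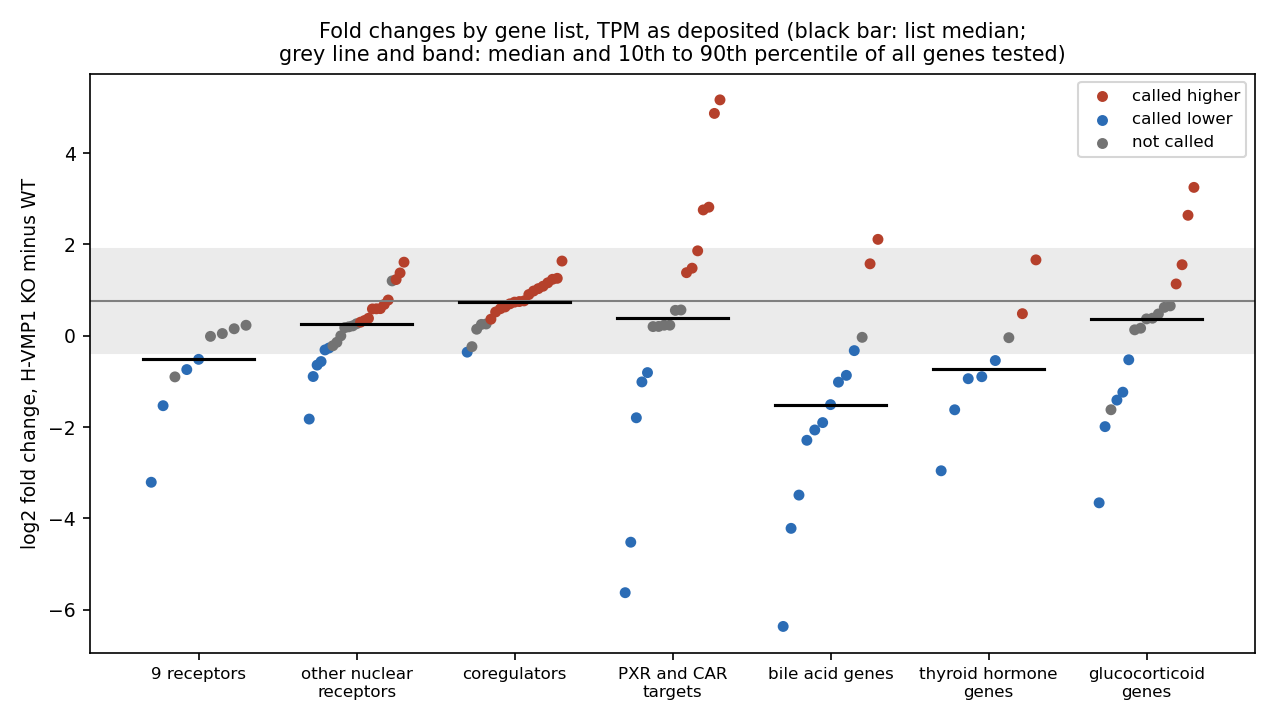
Log2 fold change, H-VMP1 KO minus WT, of every tested gene in 7 lists, red where called higher, blue where called lower and grey where not called, with list medians in black and the median of all genes as a grey line at 0.77. The 9 receptors lie between -3.21 and 0.23, all below that line, and the bile acid genes have the lowest list median, -1.51.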

How the data were processed

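Total RNA of snap-frozen livers was extracted with Trizol, per the labels' protocols. The authors deposited 1 table of TPM values, with Ensembl identifiers and symbols. Tools and build named, without role or order, in the submitters' processing notes are edgeR, RSEM, STAR 2.6.1c and mm10, and strand use is not given in the sources used here. TPM depends on the library's own total, so a drop in abundant genes lifts all others, and near-identical genes share reads. Depth and counting error are unknown.

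The filter kept genes reaching 1 TPM in 3 or more libraries. In R 4.3.3, limma 3.58.1 was run on log2(TPM + 1) with an intensity trend and robust variances, group only, and Benjamini-Hochberg adjustment at 0.05 over all genes. The procedure was tested on simulated data in which few genes changed, equally often up and down. The typical gene did not shift there, so that test does not bear on the choice of scaling. For ratios and shares, a two-sided exact permutation test over 20 assignments was used. Alternatives changed the pseudocount, filter, scaling, variance model, threshold and replicate block, and left out each library. Of 55536 identifiers, 55450 matched GENCODE M21. Promoters were RefSeq sequences. TCAAGG was searched after the promoters were seen. Figures used matplotlib 3.10.9 under Python 3.11.15.

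The receptors and gene lists were chosen with earlier results of these data known. Named genes were all 9 receptors, Vmp1, up to 3 called genes of each list other than cell markers with the largest change (mean of at least 1 TPM), 16 genes named whatever their result (Ppara, Hnf4a, Nr1h3, Rxrb, Thra, Ncor1, Ppargc1a, Cyp2b10, Cyp3a11, Cyp7a1, Cyp8b1, Abcb11, Dio1, Thrsp, Fkbp5, Tsc22d3) and the 2 most alike genes per receptor (mean of at least 5 TPM). Some genes that this rule names are not reported here. Replicates were compared, and the closest pair correlated at 0.994 with 117 identical values among 13845 genes.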

Additional observations from a re-analysis of the deposited data

How the results depend on the processing

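Nr1i3, Nr1h4, Rxra and Thrb were lower and called under every alternative run. The other receptors depended on the scaling. With median-of-ratios scaling, quantile normalization and rescaling without the Mup genes, Nr1i2 was -0.69, -0.48 and -0.025, Esr1 was -0.54, -0.80 and -0.12, and Nr3c1 was -0.70, -0.63 and -0.085. Nr0b2 was then called at -1.79, -1.64 and -1.15, and Nr5a2 at -0.89, -0.80 and -0.26. Rescaled without mitochondrial and the 20 most abundant genes, Esr1 was -0.085, Nr3c1 was -0.025, and Nr0b2 was called at -1.10. Nr0b2 was also called, at -0.90, without trend and robust variances. Which scaling is right was not tested, and depth is unknown.

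Leaving out each library in turn gave 0.15 to 0.35 for Nr1i2, -1.31 to -0.64 for Nr0b2, -0.068 to 0.064 for Nr5a2 (0.064 and 0.047 without replicate 2 of H-VMP1 KO and of WT) and -0.064 to 0.16 for Esr1 (-0.053 and -0.064 without H-VMP1 KO replicate 2 and WT replicate 3). For Nr0b2 over Rxra the range was -0.54 to 0.10. The count of receptors called higher was 0 to 1, and of those called lower 4 to 5.

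Genes called numbered 4496 higher and 4689 lower with median-of-ratios scaling and 4520 and 4534 with quantile normalization, under both of which 9 receptors were lower. A mean of at least 5 TPM left 6209 higher. In the same order of the 2 scalings, other nuclear receptors numbered 3 and 3 higher and 17 and 18 lower, and coregulators 5 and 6 higher and 7 and 7 lower. PXR and CAR targets lower numbered 8, bile acid genes higher 1 and glucocorticoid genes lower 8 with median-of-ratios scaling. With a mean of at least 5 TPM the numbers higher were 7 other receptors, 4 PXR and CAR targets, 1 bile acid gene and 1 thyroid hormone gene. Thyroid hormone genes higher numbered 1 under each rescaling and both scalings. Coregulators lower numbered 0 with no filter, with a mean of at least 5 TPM and at a threshold of 0.01. Leaving out each library gave 0 to 1 for coregulators lower, 2 to 10 for PXR and CAR targets higher, 0 to 2 for bile acid genes higher and 1 to 2 for thyroid hormone genes higher. The filter stayed at 3 libraries in these runs. Genes under 1 TPM in every WT library could thus not be tested when a library labelled H-VMP1 KO was left out.

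Of the other named genes, the sign turned with median-of-ratios scaling for Vmp1 (-0.18). With median-of-ratios scaling and quantile normalization Thra was -0.19 and -0.24, Nr1h3 -0.60 and -0.34, Rxrb -0.30 and -0.20, Ncor1 -0.67 and -0.43 and Fkbp5 -0.73 and -0.59. Without the Mup genes Ncor1 was -0.0079 and Fkbp5 -0.081. Fkbp5 was -0.013 without mitochondrial and the 20 most abundant genes, and -0.51 to 0.65 leaving out each library.

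Replicate numbers did not pair the libraries. Deviations of same-numbered libraries correlated at 0.08, 0.04 and -0.12, and not every library correlated best with its own number. With a replicate block, 9427 genes were higher and 1333 lower, 4 receptors were lower, and Thrsp lost its call (adjusted p = 0.0661).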

Other observations

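WT libraries differed among themselves. In TPM as deposited, WT replicate 2 was the highest of the 3 WT libraries for all 9 receptors, against 60.2% of all genes tested. It had the lowest Mup share of TPM, 11.6% against 17.9% and 21.2% in WT replicates 1 and 3. Median-of-ratios scaling divides WT replicates 1, 2 and 3 by 0.7239, 0.7726 and 0.6825. WT replicate 2 is then not the highest for Rxra, Nr5a2, Nr3c1 and Esr1, so these ranks depend on the scaling. WT replicate 1 was the lowest for 7 of the 9 receptors, for 14 of 17 glucocorticoid genes and for 13 of 18 PXR and CAR targets, against 38.6% of all genes tested. The other 2 lists followed less. Of 13 bile acid genes WT replicate 1 was the lowest for 6 and WT replicate 3 for 7. Of 8 thyroid hormone genes WT replicate 1 was the lowest for 4 and the highest for 3. The part of the Mup share in these ranks was not tested. Libraries labelled H-VMP1 KO also differed among themselves. Their replicate 1 was the lowest of the 3 for 12 of 18 PXR and CAR targets and 8 of 13 bile acid genes. It was the lowest for 2 of the 9 receptors and for 21.7% of all genes tested. Their replicate 2 was the highest for 8 of 13 bile acid genes, against 25.2% of all genes tested. Chosen after their values were seen, Lpin1, a phosphatidate phosphatase, was at 17.3, 16.2 and 17.3 TPM in libraries labelled H-VMP1 KO and at 14.9, 125 and 83.2 TPM in WT. Zbtb16, a transcription factor, was at 4.55, 3.91 and 5.94 TPM in libraries labelled H-VMP1 KO and at 0.46, 4.49 and 5.06 TPM in WT. Mt2, a metallothionein, was at 560, 416 and 572 TPM in libraries labelled H-VMP1 KO and at 139, 632 and 561 TPM in WT. In each of these 3 genes WT replicate 1 stood below the other 2 WT libraries and below every library labelled H-VMP1 KO.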
